A study of Mus musculus with 17 samples.

Results

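The histone genes were followed through 17 oligonucleotide arrays of NIH 3T3, a fibroblast line from mouse embryos. A member was any probe set, the group of short probes that reads one transcript, that the platform annotation gave to a single gene whose symbol starts as a histone symbol does (Hist1 to Hist4, H1f, H2ac, H2bc, H2az, H3c, H3f or H4c). By that rule 38 probe sets of 21 genes were members, out of 12637 genes that had a probe set of their own in either table. They were 16 of 22690 probe sets in the 8-array table, for 12 genes, and 22 of 12488 in the 9-array table, for 18 genes. There were 9 genes with members in both tables. No member was left out for low signal, but 4 and 12 members, respectively, had a mean signal in the lowest 30% of their table (under 73.7 and 44.9 signal units) and are called dim here. The family was chosen by its LY294002 and UO126 values, which had been seen when it was proposed, so they are given as a description without a test.

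The cells were quiescent per the labels, and each condition had 1 array. In the Src experiment, all 8 arrays of the first table, cells received vehicle, the Src family kinase inhibitor SU6656 at 2 µM, the MEK inhibitor UO126 at 10 µM or the phosphoinositide 3-kinase inhibitor LY294002 at 7.5 µM, each without PDGF or with PDGF (platelet-derived growth factor) at 25 ng/ml for 1 h. In the MEK experiment, 6 arrays of the second table, cells were untreated or received UO126 at 10 µM or PD98059, another MEK inhibitor, at 7.5 µM, each without or with PDGF at 25 ng/ml, for a time that no source used here gives. A repeat of the Src experiment, 3 arrays of the second table, had vehicle, PDGF for 1 h, and PDGF with SU6656 at 2 µM. Separate cultures are not mentioned in the labels, so p-values measure only the spread between these arrays. With 1 array a condition, that spread is how far arrays depart from effects of PDGF, inhibitor and experiment that add up. A PDGF change that differs under an inhibitor therefore counts as spread. Comparisons were made within an experiment.

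Nucleosomes wrap DNA around a core of the histones H2A, H2B, H3 and H4, and the linker histone H1 binds where DNA enters and leaves that core. Most histone genes are replication-dependent: they lie in clusters, are transcribed mainly in S phase, and give mRNAs that end in a stem-loop in place of a poly(A) tail. Variants such as H2A.Z and H3.3 are made throughout the cell cycle from ordinary polyadenylated mRNAs. Replication-dependent core histone genes of a class are near-identical in sequence, so a probe set can read several copies. How strongly stem-loop mRNAs enter array targets depends on how cDNA was primed, which is not given in the sources used here. In such bulk samples, more mRNA per cell and a larger share of cells with that mRNA cannot be told apart.

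The members were 15 probe sets of H1, 3 of H2A, 5 of H2A.Z, 9 of H2B and 6 of H3 over both tables. Of the 21 genes, 12 lie on chromosome 13, 6 on chromosome 3, 2 on chromosome 6 and 1 on chromosome 11. There was no member for H4 or H3.3, since their probe sets were annotated to several genes. Such shared histone probe sets, 19 in the 8-array table and 8 in the 9-array table, are not members, and their values are given apart. The fibroblast markers had a summed signal of 196767.1 to 234897.7 over the 8 arrays for 12 of 13 genes, while those of leukocytes (6 genes) summed to at most 1261.9, of epithelium (5 genes) to 776.2, of endothelium (5 genes) to 759.7 and of fat and muscle (5 genes) to 567.2. Over the 9 arrays the fibroblast sum was 71367.6 to 136350.2 and the others were at most 1998.9, 662.8, 881.8 and 523.0.

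H1f2, which encodes linker histone H1.2, was read by 3 probe sets of the 8-array table and 1 of the 9-array table. Its promoter and 3 others are shown because members of a class share short promoter elements. Capitals mark matches, on either strand, to the CCAAT box (CCAAT), the TATA box (TATAAA) and the H1 box (AAACACA). The H1 box is an element known from H1 genes. The sequences are RefSeq's, of build GRCm38.p6, read 5′ to 3′ on the gene's strand from 250 bases before the annotated start to 50 after it. H1f2 is chr13:23738557-23738856 (plus strand). H1f4, another somatic H1 gene, is chr13:23622509-23622808 (minus strand). Its members were dim in both tables, with means of 5.3 and 3.4 signal units, so whether H1f4 responds cannot be read from them. H2ac19, an H2A gene, is chr3:96240325-96240624 (minus strand). H2bc22, an H2B gene, is chr13:21787238-21787537 (plus strand).
H1f2: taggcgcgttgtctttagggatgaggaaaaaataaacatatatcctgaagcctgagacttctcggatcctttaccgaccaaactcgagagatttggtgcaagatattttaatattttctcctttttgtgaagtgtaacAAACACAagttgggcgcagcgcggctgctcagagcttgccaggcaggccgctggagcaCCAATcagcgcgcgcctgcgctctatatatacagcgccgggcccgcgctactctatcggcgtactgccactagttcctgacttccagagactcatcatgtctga
H1f4: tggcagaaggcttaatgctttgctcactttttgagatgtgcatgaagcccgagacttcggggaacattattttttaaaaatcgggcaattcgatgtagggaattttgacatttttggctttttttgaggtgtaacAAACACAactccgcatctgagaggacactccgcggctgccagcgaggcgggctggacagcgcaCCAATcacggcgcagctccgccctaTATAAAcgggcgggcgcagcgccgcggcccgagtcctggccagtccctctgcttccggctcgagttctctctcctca
H2ac19: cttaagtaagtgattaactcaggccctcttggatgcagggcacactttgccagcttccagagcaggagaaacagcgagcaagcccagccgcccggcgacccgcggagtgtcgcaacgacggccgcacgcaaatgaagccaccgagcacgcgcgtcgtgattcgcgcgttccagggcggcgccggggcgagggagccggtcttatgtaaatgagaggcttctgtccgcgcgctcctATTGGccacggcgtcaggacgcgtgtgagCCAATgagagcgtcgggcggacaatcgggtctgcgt
H2bc22: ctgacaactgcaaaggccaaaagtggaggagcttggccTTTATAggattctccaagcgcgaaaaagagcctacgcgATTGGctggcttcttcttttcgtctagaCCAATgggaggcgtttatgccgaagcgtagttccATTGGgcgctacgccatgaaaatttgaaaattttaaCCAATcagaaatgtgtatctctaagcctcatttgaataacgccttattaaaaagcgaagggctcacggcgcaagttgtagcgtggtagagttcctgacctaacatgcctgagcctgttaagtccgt

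Promoters were given for 19 of the 21 member genes. CCAAT was found in 18 of the 19, against 37.4% of 32851 mouse promoters of the same 300 bases. AAACACA was found in 6, against 7.18% of all promoters: in H1f2, H1f3, H1f4, H1f5 and H1f6 of the 8 H1 genes, and in H2bc1. In those 5 H1 genes it began between 112 and 122 bases before the start. TATAAA was found in 9 of the 19 (13.6% of all promoters), with no match in the H1f2 window. The octamer ATTTGCAT, an element known from H2B promoters, was found in 3 of the 4 H2B promoters, those of H2bc1, H2bc18 and H2bc3, and in none of the other classes (1.74% of all promoters). The letters GTAAACA, the core of FOXO binding sites, were in none of the 19 windows and in 3.65% of all promoters. A match is a description of these letters only.

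**Figure D1:**
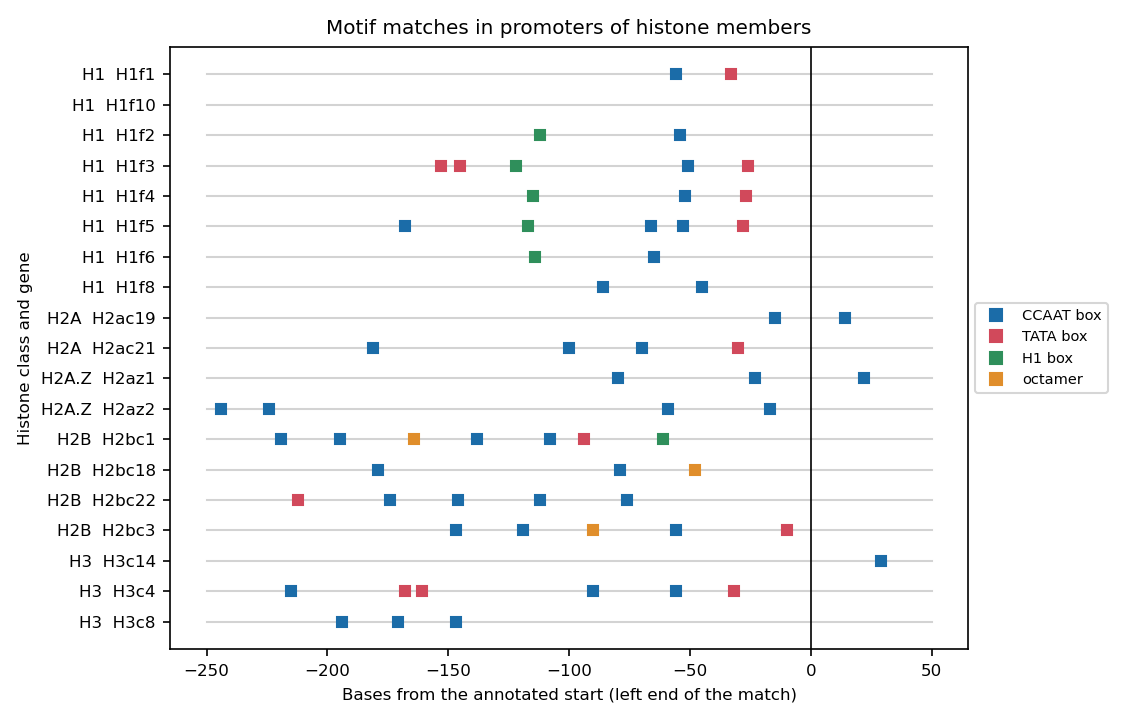
Position of motif matches in the promoters of the 19 member genes with a RefSeq promoter: each square is the left end of a match on either strand, in bases from the annotated start, and each row is a gene. The H1 box matches of H1f2 to H1f6 sit between 112 and 122 bases before the start.

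With LY294002, the linker histone gene H1f2 and core histone probe sets of H2A and H2B had higher signals both without and with PDGF, while the H2A.Z gene H2az1 had lower ones. The H1f2 probe set 1416101_a_at read 4782.1 signal units with vehicle, 5279.3 with SU6656, 8058.0 with UO126 and 12254.9 with LY294002. With PDGF the same probe set read 6472.5 alone, 6144.5 with SU6656, 10322.7 with UO126 and 14124.7 with LY294002. Both LY294002 arrays lay above the other 6, and both UO126 arrays lay above the 4 arrays with vehicle, SU6656, PDGF or both PDGF and SU6656. The log2 change with LY294002, here and below on the log2(signal + pseudocount) scale after quantile normalisation, was 1.34 without PDGF and 1.12 with it, a mean of 2.35-fold.

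A second H1f2 probe set, 1436994_a_at, read 792.4 with vehicle and 1876.5 with LY294002, and 798.3 with PDGF and 2450.3 with PDGF and LY294002. Its log2 changes were 1.24 and 1.55, a mean of 2.63-fold, and the LY294002 arrays were again the highest of the 8. The last, 1438204_at, read between 79.4 and 189.1 over the 8 arrays, and its LY294002 changes were 0.26 in both pairs. The 3 probe sets of H1f2 therefore disagreed in size though not in direction.

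H2ac19 also had probe sets that differed. The probe set 1418367_x_at, whose suffix marks probes that can match other transcripts, read 1677.8 with vehicle and 4919.9 with LY294002, and 1700.1 with PDGF and 5286.2 with PDGF and LY294002. On the other 4 arrays it read 2018.4 to 3025.9, so the LY294002 arrays stood above all others. Its log2 changes were 1.51 and 1.63, a mean of 2.97-fold. The probe set 1418366_at of the same gene read 1046.7 with vehicle and 1496.6 with LY294002, and 1002.5 with PDGF and 1527.3 with both. Its changes, 0.50 and 0.58, were smaller, with the LY294002 arrays the highest here too.

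H2bc22, of H2B, read 369.3 with vehicle and 700.7 with LY294002, and 242.2 with PDGF and 706.9 with PDGF and LY294002. On the other 4 arrays it read 264.2 to 513.8, below both LY294002 arrays. The changes were 0.88 and 1.38, a mean of 2.18-fold. This probe set, 1427762_x_at, also can match several transcripts. H2bc18, another H2B gene, had changes of 0.19 and 0.76. H3c4, of H3, read 81.8 with vehicle and 295.1 with LY294002, and 96.3 with PDGF and 160.7 with both, and its changes of 1.48 and 0.57 differed between the pairs.

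The H2A.Z members did not share this pattern. H2az1, which encodes the H2A.Z.1 variant, read 4851.2 with vehicle and 3700.2 with LY294002 on 1438091_a_at, and 3934.6 with PDGF and 3393.4 with both. The changes were -0.41 and -0.19, with the LY294002 arrays the lowest of the 8. Its other probe set, 1438092_x_at, had changes of -0.73 and -0.34, again with both LY294002 arrays lowest, at 633.8 and 572.1. H2az2, which encodes H2A.Z.2, read 1953.7 to 2466.2 over all arrays and had changes of 0.24 and 0.08. H1f10, a replication-independent H1 variant, had changes of -0.23 and -0.87.

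Counted at 1.5-fold or more the same way in both pairs, which share no array, 4 of 16 members were up with LY294002 (both H1f2 probe sets ending in _a_at, H2ac19 and H2bc22) against 1.48% of all 22626 probe sets that are not controls. The number down was 1 (against 1.68%), the dim probe set of H1f6, a testis H1 gene, with changes of -0.66 and -0.75. Among the 12 members that were not dim, 4 were up (1.09% of 15838) and 0 were down (1.39%). The median change of those 12 was 0.38 without PDGF and 0.57 with it, against -0.00 and 0.00 over all probe sets that were not dim. With the probe sets that can match several transcripts left out, both H1f2 probe sets remained of the 4. The family was proposed for these values, so no test goes with the counts.

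**Figure D2:**
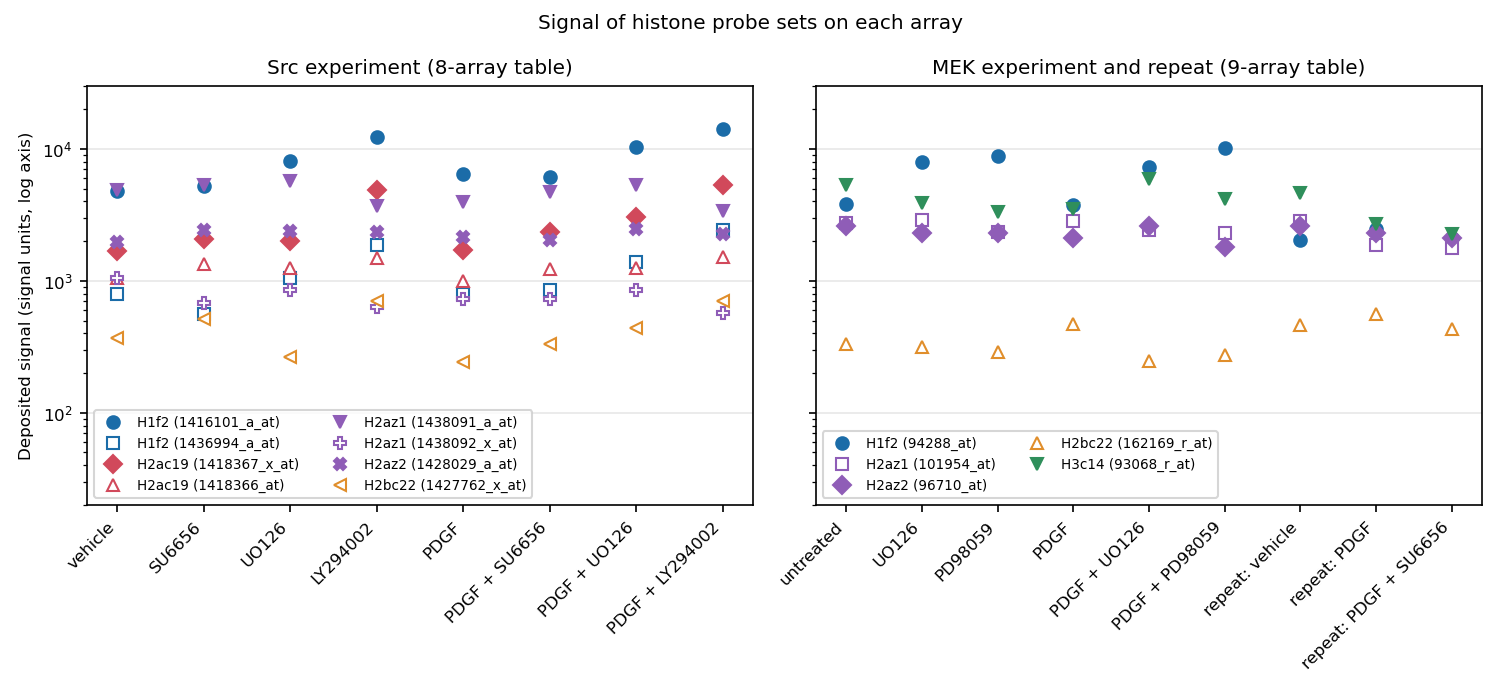
Deposited signal (log axis) on each array for histone probe sets, by condition, 1 array a condition; colours mark the class and each symbol is a probe set. H1f2 is highest in its row of 8 arrays with LY294002 (12254.9 and 14124.7), and in the MEK experiment its 4 inhibitor arrays lie above the untreated (3803.3) and PDGF (3780.3) arrays.

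The shared probe sets, which read several histone genes and are no members, cover the classes that members lack. With LY294002, 7 of the 15 that were not dim were at least 1.5-fold up in both pairs and 0 were down (1.09% and 1.39% of all probe sets that were not dim), with a median change of 0.78. Both H2B probe sets were among the 7 (1.05 and 1.39, and 1.19 and 1.25), as were both of H4 (0.71 and 1.51, and 0.99 and 1.23) and 2 of 3 of H3. The 1 shared H2A probe set that was not dim did not pass the fold, with changes of 0.01 and 0.50. Of the H3.3 variant 1 of 5 was up, and the median over the 5 was 0.10. Neither of the 2 shared H2A.Z probe sets was past the fold, and both lay below 0 in both pairs (-0.30 and -0.26, and -0.51 and -0.39). The difference between classes was not tested.

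**Figure D3:**
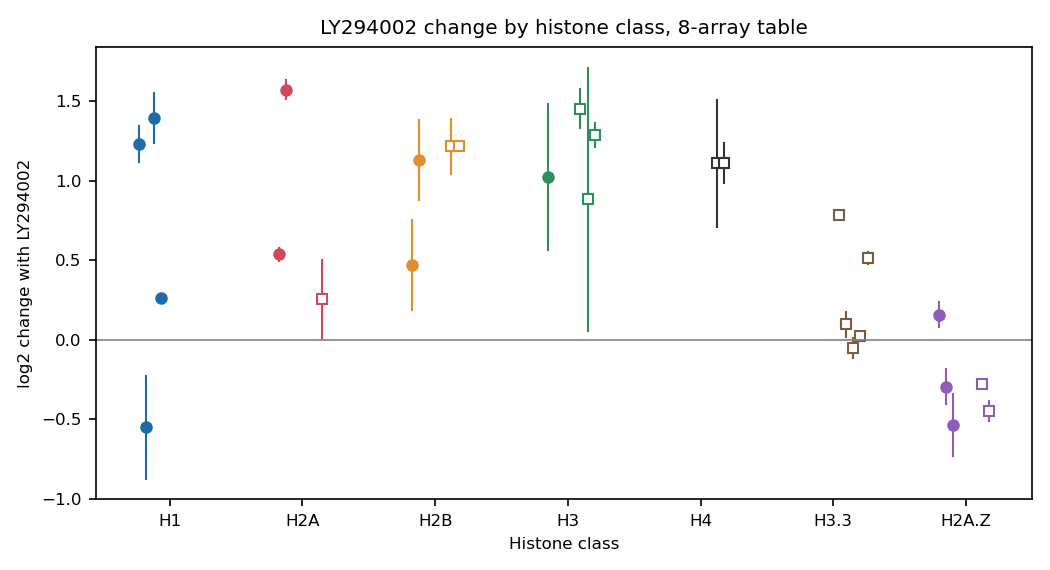
Log2 change with LY294002 in the 8-array table by histone class for probe sets that are not dim: filled circles are members, open squares are probe sets shared by several genes, each marker is the mean of the pairs without and with PDGF and the line joins the 2 pairs. H4 markers lie above 0.7 throughout, while 4 of the 5 H2A.Z markers lie below 0.

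With UO126, H1f2 was higher than its control in both experiments. In the Src experiment the probe set 1416101_a_at changed by 0.71 without PDGF and 0.64 with it, a mean of 1.59-fold. The probe set 1436994_a_at changed by 0.42 and 0.74, and the low-signal 1438204_at by -0.16 and -0.27, so the probe sets differed in direction. In the MEK experiment, on the other array design, 94288_at read 3803.3 in untreated cells and 7957.8 with UO126, and 3780.3 with PDGF and 7252.8 with both. Its log2 changes were 1.10 and 0.93, a mean of 2.02-fold, and both UO126 arrays lay above the untreated and PDGF arrays. The controls differ, vehicle in one experiment and untreated cells in the other.

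Of the 16 members of the Src experiment 2 were at least 1.5-fold up in both pairs with UO126 (1.3% of all probe sets) and 0 were down (1.28%). Besides H1f2 this was H2bc18, which read 175.1 with vehicle, 279.1 with UO126, 81.9 with PDGF and 192.0 with both. Its changes were 0.59 and 0.99, the first close to the fold used. H2ac19 (1418367_x_at) had changes of 0.27 and 0.77, and H2bc22 of -0.43 and 0.79. In the MEK experiment 3 of 22 members were up (1.64%) and 0 down (1.68%). These were H1f2 and the dim probe sets of H1f8, an oocyte linker histone gene, with 0.62 and 0.95, and of H2bc22 (161394_f_at), with 1.04 and 0.66. Among members that were not dim, 2 of 12 were up and 0 down in the Src experiment (0.814% and 0.96% of such probe sets), and 1 of 10, H1f2, was up and 0 down in the MEK experiment (1.41% and 1.24%). Median changes of the 12 and 10 members that were not dim were 0.27 and 0.35 in the Src experiment, and -0.30 and 0.16 in the MEK experiment, where all probe sets that were not dim had -0.01 and 0.01.

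Other members with values in both experiments did not move together with UO126. H2az1 changed by 0.22 and 0.42 on its 1438091_a_at probe set in the Src experiment, and by 0.03 and -0.26 in the MEK experiment. H2az2 changed by 0.31 and 0.19, and by -0.21 and 0.22. H2bc22 on 93834_at read 187.6 in untreated cells, 23.9 with UO126, 147.4 with PDGF and 142.0 with both, so its low value stood on 1 array. Its other probe set above the dim limit, 162169_r_at, changed by -0.05 and -0.80. The H2bc18 member of the 9-array table was dim, with changes of 0.15 and 1.39. Of the shared probe sets that were not dim, 0 of 15 were up in both pairs in the Src experiment (0.814% of all such probe sets), and 1 of 8 was in the MEK experiment (1.41%).

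**Figure D4:**
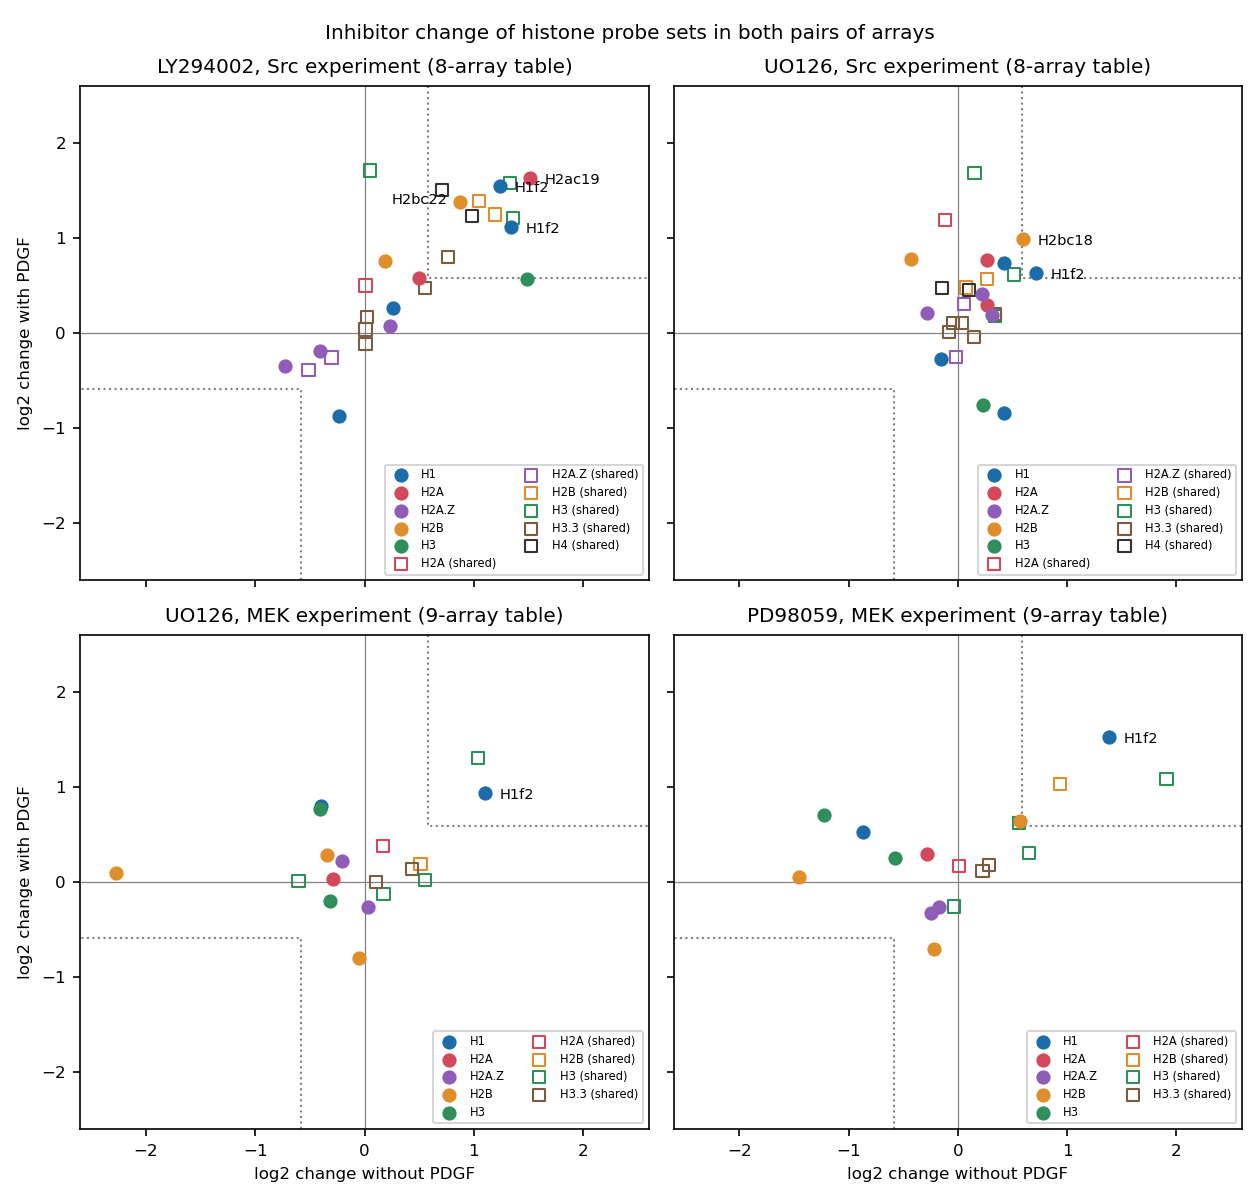
Log2 change of histone probe sets that are not dim with LY294002, UO126 (both experiments) and PD98059, 1 panel each, without PDGF (x axis) and with PDGF (y axis): filled circles are members, open squares probe sets shared by several genes, and dotted corners mark 1.5-fold in both pairs. H1f2 has a probe set in the upper right corner of each of these 4 panels, with means of 2.35-fold and 2.63-fold for LY294002, 1.59-fold and 2.02-fold for UO126, and 2.74-fold for PD98059; in the 8-array table its low-signal probe set lies at 0.26 on both axes for LY294002 and 2 of its 3 probe sets lie outside the corner for UO126.

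PD98059 was tested, since the family was not proposed for it. Its arrays are, however, set against the same untreated and PDGF arrays as those of UO126, in 1 fit. The test is thus not independent of the UO126 values by which the family was chosen. H1f2 rose with PD98059. It read 3803.3 in untreated cells and 8875.3 with PD98059, and 3780.3 with PDGF and 10114.9 with both. Both PD98059 arrays lay above their controls, by 1.39 and 1.52 on the log2 scale. The fitted change was 1.45 (SE 0.13), or 2.74-fold, with an adjusted p of 0.00527 in limma with Benjamini-Hochberg adjustment. It was the only probe set of 8695 that passed (0.0115%), while 788 had an unadjusted p under 0.05, and the other 9 members tested did not pass. The call rested on few arrays: the adjusted p was 0.106 without the untreated array, 0.0593 without the PD98059 array, 0.111 without the array of PDGF and PD98059, and 0.248 without the variance trend, with log2 changes of 1.41 to 1.52.

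Among the other members H2bc1, a testis H2B gene whose probe set can match related genes, had a fitted PD98059 change of 0.60 (SE 0.26, adjusted p = 0.532 in limma). H2az1 had -0.29 (SE 0.17, adjusted p = 0.661 in limma) and H2az2 had -0.22 (SE 0.15, adjusted p = 0.722 in limma). H2bc22 had -0.71 (SE 0.48) on 93834_at and -0.46 (SE 0.23) on 162169_r_at. Counted by fold, 2 of 22 members were up in both pairs with PD98059 (1.98%), H1f2 and the dim H1f5, a somatic H1 gene, with 1.09 and 0.80, and 0 were down (1.7%). Among the 10 that were not dim 1 was up and 0 down (1.93% and 1.32% of such probe sets). Of the shared probe sets 2 of 8 were up (1.93% of all probe sets that were not dim), 1 of H2B (0.93 and 1.03) and 1 of H3 (1.91 and 1.08). Of the endothelial markers 1 of 5, Pecam1, was also up with PD98059 (1.16 and 1.90), and of the fibroblast markers 1 of 12, Lum, was down (-0.66 and -0.67). Their part in the result was not tested.

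With PDGF, 1 histone member passed the test, while others with larger changes in single pairs, such as H2bc22 on 93834_at (2.01 under UO126) and H1f6 (-1.44 in the repeat), did not pass. H1f6 read 71.5 with vehicle and 15.6 with PDGF in that pair, the second under the dim limit of 44.9. In the 8-array table, 1 of 12 tested members rose, H1f2 on 1416101_a_at, and 0 fell, against 2.51% of 15838 probe sets up and 0.808% down. Its log2 changes were 0.40 without inhibitor, 0.21 under SU6656, 0.33 under UO126 and 0.18 under LY294002, all above 0. The fitted change was 0.28 (SE 0.06), or 1.21-fold, with an adjusted p of 0.0248 in limma. The call was lost when any 1 of the 8 arrays was left out, with adjusted p from 0.0536 to 0.145 and log2 changes of 0.24 to 0.31. At the same fitted change of 0.28 it was also lost without the filter on dim probe sets (0.0679), without the variance trend (0.259) and without the pairs as a block (0.77).

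The other H1f2 probe sets had PDGF effects of 0.32 (SE 0.10, adjusted p = 0.133 in limma) and 0.02 (SE 0.22). In the 9-array table that of H1f2 was 0.10 (SE 0.09, adjusted p = 0.719 in limma), with 0.04 in the MEK experiment, 0.31 in the repeat, -0.13 under UO126 and 0.18 under PD98059. H1f2 in the repeat read 2047.3 with vehicle, 2482.9 with PDGF and 2107.9 with PDGF and SU6656.

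The lowest PDGF effects of the 8-array table were those of H2bc18, -0.38 (SE 0.17, adjusted p = 0.309 in limma), and H3c4, -0.34 (SE 0.24). H2bc18 was below 0 in all 4 pairs, from -0.75 without inhibitor to -0.19 under LY294002. H2az1 had -0.21 (SE 0.06, adjusted p = 0.102 in limma) on 1438091_a_at, below 0 in all 4 pairs, and -0.22 (SE 0.12, adjusted p = 0.471 in limma) in the 9-array table. H2az2 had -0.07 (SE 0.08) and -0.17 (SE 0.11). H2ac19 had 0.17 (SE 0.09) and -0.06 (SE 0.07), and H2bc22 had -0.06 (SE 0.20).

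In the 9-array table, 0 of 10 tested members passed, against 1.41% of 8695 probe sets up and 0.242% down. At an unadjusted p under 0.05 in limma there was 1 of the 10, beside 1147 of the 8695. The pairs of that table may differ in PDGF time, which is given only for the repeat. The highest effects were those of H2bc22 on 93834_at, 0.79 (SE 0.34, adjusted p = 0.363 in limma), and of H2bc1, 0.15 (SE 0.18). For H2bc22 the 4 pairs ran from -0.36 to 2.01, so they did not agree in sign. The lowest were those of H3c8 on 101784_f_at, of H3, -0.54 (SE 0.37), and of H1f6, -0.48 (SE 0.38). Their mean signals, 56.3 and 46.9, lay near the dim limit of 44.9. H3c8 also had dim probe sets, 93024_at and 101783_i_at. These changed by 0.69 and 0.36 without inhibitor in the MEK experiment, 0.37 and -0.50 under UO126, 0.48 and -0.05 under PD98059, and -0.15 and 0.33 in the repeat. H3c14, also of H3, read 5344.5 in untreated cells and 3528.5 with PDGF, and 4605.6 and 2696.4 in the repeat, while it read 3902.0 and 5948.3 under UO126, and 3332.4 and 4201.3 under PD98059. PDGF arrays were thus lower in 2 pairs and higher in the other 2. Its effect was -0.10 (SE 0.20), and its annotation is uncertain, since its accession also stands for a probe set of several H2A genes. H2ac21, of H2A, had -0.05 (SE 0.27).

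The median PDGF effect over the members tested was -0.06 in the 8-array table and -0.08 in the 9-array table, against -0.03 over all probe sets in each. Effects of the 12 members ran from -0.38 to 0.32 and those of the 10 from -0.54 to 0.79. Of the marker lists, 1 epithelial gene of 3 tested rose and 1 endothelial gene of 3 fell with PDGF in the 8-array table, and 1 fibroblast gene of 12 fell in the 9-array table, and their part in these values was not tested.

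SU6656 was tested, although its arrays are set against the same vehicle and PDGF arrays as those of LY294002 and UO126. The test is thus not independent of the values by which the family was chosen. With SU6656, 0 of 12 tested members passed in limma, and of all 15838 probe sets 0.107% fell. An unadjusted p under 0.05 was found for 3 of the 12, beside 1268 of the 15838. The 3 included both probe sets of H2ac19. H1f2 had a fitted change of 0.01 (SE 0.08, adjusted p = 0.985 in limma) on 1416101_a_at, and -0.20 (SE 0.14) on 1436994_a_at. H2ac19 had 0.36 (SE 0.12, adjusted p = 0.5 in limma) and 0.31 (SE 0.11, adjusted p = 0.502 in limma), and H2bc22 had 0.43 (SE 0.28). H1f10 had -0.96 (SE 0.45, adjusted p = 0.642 in limma), from 0.08 without PDGF and -2.00 with it, where it read 29.4. On the other array design the H1f10 member was dim and changed by -0.01 in the repeat, with PDGF. By fold in both pairs 1 of 16 members was up, the dim H1f8 with 1.29 and 0.85, and 0 were down, against 1.18% and 1.24% of all probe sets. Of the 12 that were not dim 0 were up or down (0.783% and 0.821% of such probe sets). In the repeat, where 1 array with PDGF and SU6656 was set against 1 with PDGF, H1f2 changed by -0.24, H3c8 on 101784_f_at by 1.47 and H2bc22 on 93834_at by 1.34. Probe sets of a gene disagreed there. H2bc22 changed by -0.40 on 162169_r_at and by 0.60 on the dim 161394_f_at. The dim H3c8 probe sets 93024_at and 101783_i_at changed by -0.54 and -0.21. The mean signal of 101784_f_at, 56.3, lay near the dim limit of 44.9. Of the markers, Cldn3 of epithelium (1.84 and 0.69) and Eng of endothelium (0.75 and 0.93) were past the fold with SU6656, 1 of 5 in each list, and their part was not tested. Whether SU6656 and the other inhibitors differ in their effect on H1f2 was not tested.

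**Figure D5:**
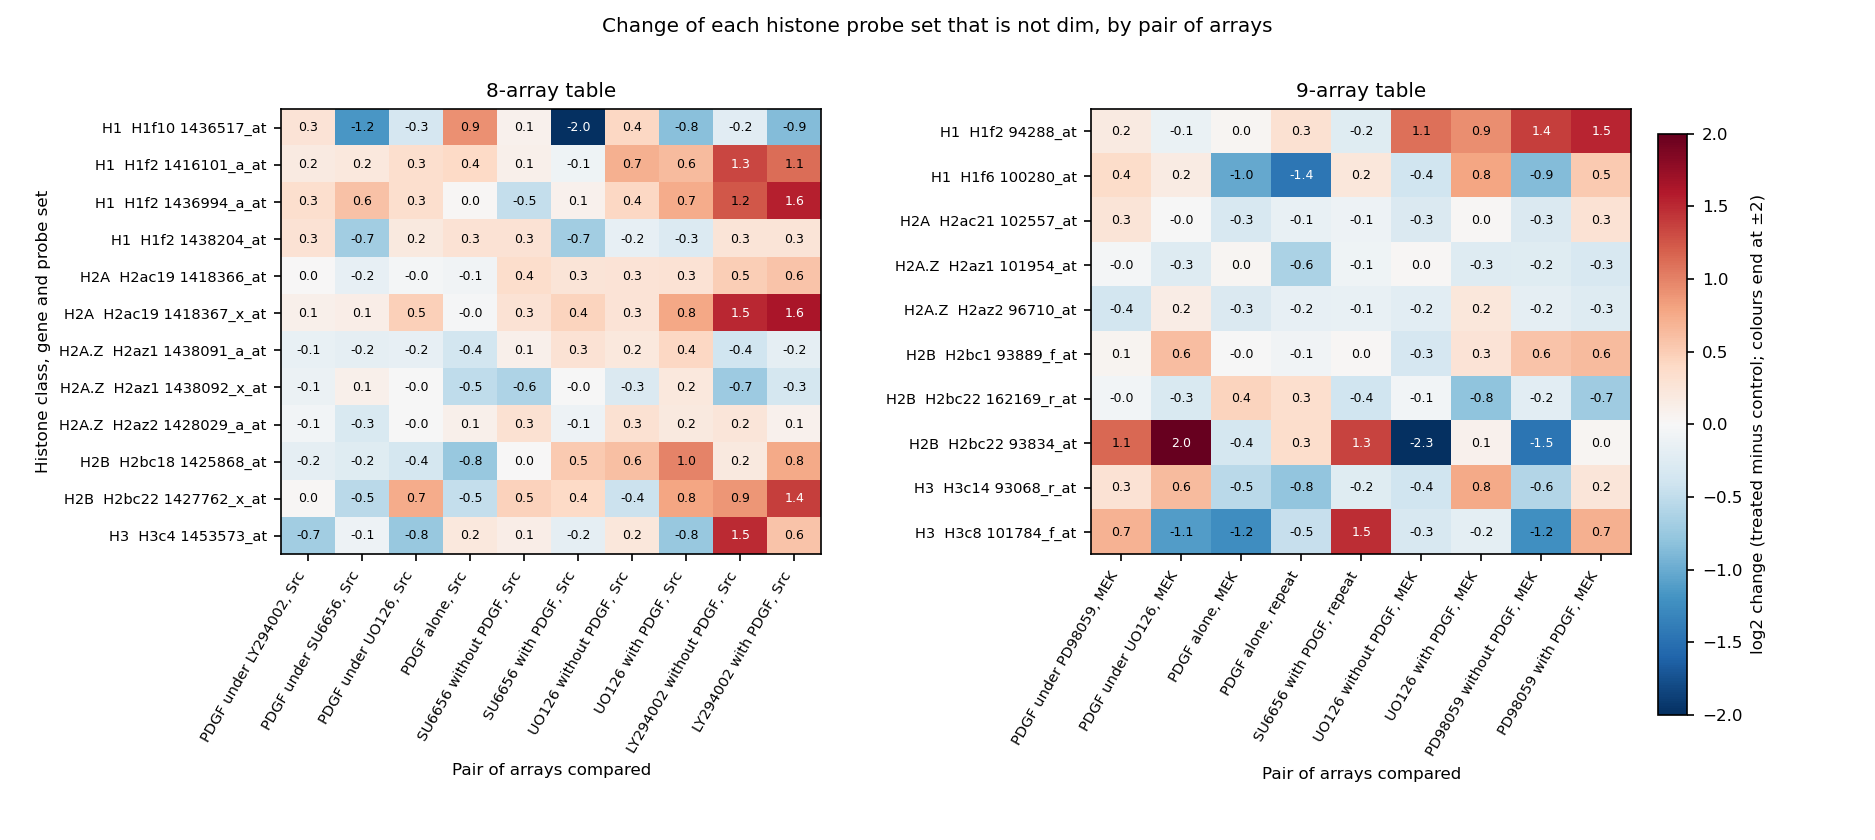
Log2 change of each member that is not dim (rows, with class, gene and probe set) in each pair of arrays (columns), treated minus control; red is higher, blue lower, and colours end at 2. H1f2 is red with LY294002 in the 8-array table, faintly (0.26) on its low-signal probe set, and with UO126 except on that probe set, which is below 0; in the 9-array table it is red with UO126 and PD98059.

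Genes that serve histone mRNA processing and histone supply were counted beside the shares of all probe sets. Of 20 such genes measured in the 8-array table, 0 passed with PDGF or SU6656 in limma. Of all probe sets tested, 2.51% rose and 0.808% fell with PDGF, and 0.107% fell with SU6656. With LY294002 1 of the 20 was at least 1.5-fold up, against 1.48% of all probe sets. It was Casp8ap2, whose product FLASH takes part in histone mRNA processing, with 0.69 and 0.84. With UO126 0 of 20 were up (1.3% of all probe sets). Of 18 in the 9-array table, 0 passed or were past the fold in any comparison. There 1.41% of all probe sets tested rose with PDGF. By fold, 1.64% of all probe sets were up with UO126 and 1.98% with PD98059. Counts of 0 in lists this short are near these shares. Of other histone variants (H2A.X, macroH2A, H2A.J and CENP-A genes) 5 and 4 were measured, and 0 passed or were past the fold, beside the same shares. Of 26 S phase genes measured in the 8-array table, 2 were up with LY294002, Mcm7, a subunit of the replicative helicase (0.97 and 0.66), and the dim Tyms, thymidylate synthase (0.99 and 1.57). The flap endonuclease gene Fen1 was down (-0.97 and -1.10). Of all probe sets 1.48% were up and 1.68% down. The median LY294002 change of the S phase genes was -0.17. Tyms was also up with UO126 in the Src experiment (0.91 and 1.09) and with SU6656 (1.19 and 1.37), as was the dim Gins1 with SU6656 (1.33 and 0.67), against 1.3% of all probe sets up with UO126 and 1.18% with SU6656. In the 9-array table, 0 of 24 S phase genes were past the fold with UO126 or PD98059 (1.64% and 1.98% of all probe sets up). With PDGF 0 of 21 and 0 of 22 passed in limma (2.51% and 1.41% of all probe sets tested rose), with medians of -0.11 and -0.12.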

How the data were processed

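RNA of NIH 3T3 cells was read on 17 arrays, 1 a condition, and no probe-level files were used. The deposited intensity values are linear signals that were already scaled: the trimmed mean of each array was 500.2 (8-array table) or between 500.3 and 500.4 (9-array table), and array medians were 174.7 to 198.4 and 133.7 to 156.15. The software behind them is not given in the sources used here. The number of arrays limits the precision. Spearman's rho between arrays was 0.945 to 0.962 and 0.933 to 0.967.

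Control probe sets (64 and 66) were left out. Values were quantile-normalised within a table and taken as log2 after adding a pseudocount, the 20th percentile of each table (36.3 and 21.2), which understates changes of low signals. The lowest 30% by mean were left out of fits, which ran on 15838 and 8695 probe sets. Additive models were fitted in limma 3.58.1 (R 4.3.3) with 3 residual degrees of freedom, eBayes with trend and Benjamini-Hochberg adjustment over all probe sets tested, at 0.05. PDGF effects rest on 4 pairs of arrays in each table, with the pair as a block given by the shared experiment and inhibitor. The fit was tested on simulated data. LY294002 and UO126 were described only, as the share at least 1.5-fold the same way in both pairs. Alternatives were the normalisation, pseudocount, filter, variance model, fold, probe sets and single arrays or pairs left out.

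The members and gene lists were chosen with earlier results of these data known. Probe sets were named through the platform annotation, which gave 1 gene to 20393 and 10855 probe sets, several to 691 and 396, and listed no gene for 1606 and 1237. All member symbols matched RefSeq. Named are the brightest member of each class in each table, those past a threshold, the highest and lowest 2 PDGF effects in each table, and the other table's members of those genes. For a gene list the brightest probe set of each gene was used.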

Additional observations from a re-analysis of the deposited data

How the results depend on the processing

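For PDGF in the 8-array table the count of members called was 1, and it was 2 with scaling to a common median, 0 without the filter, 0 without the variance trend, 0 with no replicate block and 0 to 0 with 1 array left out. Over all probe sets that count was 525 (397 up and 128 down), 644 with a common median (579 up and 65 down), 175 without trend (157 up and 18 down), 241 without the block (216 up and 25 down) and 357 without the filter (291 up and 66 down); with 1 array left out it fell to as low as 264. In the 9-array table, 144 became 63 without trend, and the block moved no call of a member. For SU6656 17 became 11 without the filter, 0 without trend and as low as 0 with 1 array left out. For PD98059 the count of members called was 1, 0 without the variance trend, and 0 to 1 with 1 array left out; over all probe sets it was 0 to 3. For LY294002 5 members past the fold became 8 at 1.3-fold, 3 without probe sets that can match several transcripts, and 8 to 8 with 1 pair alone. For UO126 in the 8-array table, 2 became 1 with the deposited scaling, 1 with a common median, 1 with a pseudocount of 100 and 4 at 1.3-fold, and 3 to 9 with 1 pair alone. In the 9-array table, 3 became 1 with a pseudocount of 100, 1 without dim members and 1 without probe sets that can match several transcripts, and 5 to 9 with 1 pair alone. H2bc1's PDGF effect in the 9-array table, 0.15, was -0.0031 without the UO126 array and -0.0034 without the array of PDGF and UO126, and ran up to 0.2247 with 1 array left out. Scaling to a common median moved the median of all probe sets to 0.12 for UO126 with PDGF in the MEK experiment. Of the values recomputed, 196 kept their direction and their side of the threshold, or, for counts, stayed within 1.5 times the count reported, or, without a test, moved by less than the spread between the pairs. Of the rest, 24 moved past these limits, 15 lost their call, 2 changed direction and 1 gained a call. Alternatives for SU6656 in the repeat were chosen after seeing the data. The cause was not tested. Low signals limit the dim members, whose changes shrink with a larger pseudocount.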
